A study of Mus musculus with 5 samples.

Results

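The BMP signaling and Id genes described here are 10 genes: the ligands Bmp2 and Bmp4, the receptors Bmpr1a and Bmpr2, the signal carriers Smad1 and Smad5, the inhibitory Smad6, and the target genes Id1, Id2 and Id3. They were taken by name, matching Ensembl identifiers to GENCODE M21 symbols, and all 10 were found among the 54232 genes of the table. RNA-Seq was performed on primary myoblasts, the precursor cells of muscle, isolated from mouse leg muscles with a magnetic satellite cell kit and anti-integrin beads, which are meant to remove other cell types, and differentiated in horse serum medium for 72 h, when many have fused into multinucleated myotubes. WT cells (n = 3) were compared with Elmo2EID/EID cells (n = 2), whose mice are homozygous for a knock-in mutation in the inhibitory domain of ELMO2 that favors the open conformation of this protein. The comparison shows how the RNA of differentiated cells differs between the genotypes. The mutation is carried in the whole organism, so any non-muscle cell left in an Elmo2EID/EID culture carries it too, and no other allele or agent is given for either group. The myoblasts came from young adult mice, and the study's mice had a mixed C57BL6 and 129SV background, while sex is not in the sample labels. The series design counts N as mice, and the p-values measure only the spread between these 5 samples.

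BMP ligands are secreted factors that bring together type I and type II receptor kinases, which phosphorylate SMAD1 and SMAD5. These enter the nucleus with SMAD4 and switch on genes such as Smad6, which feeds back on the pathway, and the Id genes. ID proteins lack a DNA-binding region and capture E proteins, the partners that the muscle factors MYOD and MYOGENIN need to bind DNA, and BMP signaling is known for holding myoblasts in an undifferentiated state.

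Every member was expressed in all 5 samples, and the Id, receptor and SMAD1/5 RNAs were abundant in both genotypes. Bmp4 stood out among them, with a mean 5.50-fold higher in Elmo2EID/EID than in WT myoblasts, yet with a wide spread within each genotype. Smad1 was slightly higher, Smad5 slightly lower and Id2 lower in both Elmo2EID/EID samples than in the WT samples. Bmp2, both receptors, Smad6, Id1 and Id3 overlapped between the genotypes. Expression is given below in normalized counts, the reads of a gene divided by the size factor of its library, and fold changes are Elmo2EID/EID over WT on the log2(normalized count + 1) scale, where the added 1 understates the change of low genes and logs are averaged, so that a fold change can differ from the ratio of the means.

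Differences were tested with limma over 18156 expressed genes, those reaching 5 normalized counts in any sample, and p-values were adjusted by the Benjamini-Hochberg method and judged at 0.05. All 10 members entered the test and 0 of 10 passed it, where limma called 404 genes, or 2.23% of those tested. The edgeR quasi-likelihood test also called 0 members (2.25% of all genes). The DESeq2 Wald test called 1, Bmp4 (5.34% of all genes), which was higher (2.28% of all genes). At an unadjusted limma p under 0.05 there were 3 members (15.2% of all genes), of which Bmp4 and Smad1 were higher (6.93% of all genes) and Id2 was lower (8.31% of all genes). The 2 genotypes did not overlap for 4 members, against 32.6% of all genes, namely Bmp4 and Smad1 on the higher side (16.7% of all genes) and Smad5 and Id2 on the lower side (15.9% of all genes). The median log2 fold change of the 10 was 0.06 and their median absolute log2 fold change 0.19, where all genes tested had 0.01 and 0.16.

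**Figure D1:**
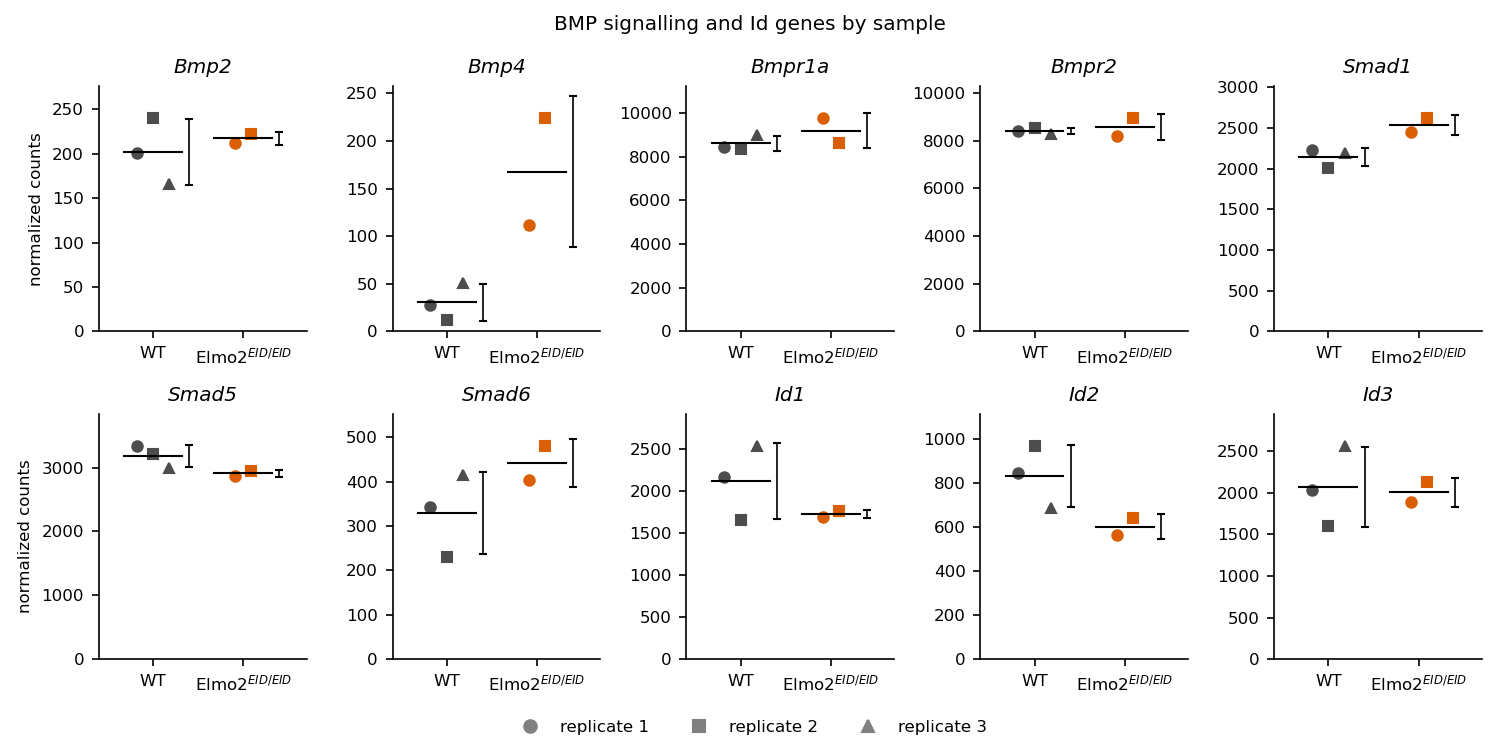
Normalized counts (y axes from 0) of the 10 genes in each WT sample (grey) and each Elmo2EID/EID sample (orange), where the symbol gives the replicate number, the horizontal line the genotype mean and the bar beside it the SD. Bmp4 lies between 12.3 and 51.0 in WT and at 111.8 and 224.1 in Elmo2EID/EID, while the points of Bmp2, Bmpr1a, Bmpr2, Smad6, Id1 and Id3 overlap.

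Bmp4, a ligand made by many embryonic and adult tissues, had 28.3, 12.3 and 51.0 normalized counts in WT replicates 1, 2 and 3 and 111.8 and 224.1 in Elmo2EID/EID replicates 1 and 2. These came from 32, 11 and 41 reads and from 125 and 250 reads, so the gene was low in WT cultures. Both Elmo2EID/EID samples were above all 3 WT samples, but the WT samples differed among themselves and so did the Elmo2EID/EID samples. The means were 30.5 ± 19.4 (SD, n = 3) and 168 ± 79.4 (SD, n = 2), a log2 fold change of 2.55 (standard error 0.58, 95% interval 1.16 to 3.93) with an adjusted p = 0.0883 from limma. DESeq2 gave a log2 fold change of 2.47 with an adjusted p = 0.000383, and edgeR an adjusted p = 0.064. Over the 16 alternative settings the log2 fold change of Bmp4 stayed between 2.03 and 3.05, and its adjusted p ranged from 0.000383 with DESeq2 to 0.503 without Elmo2EID/EID replicate 2. Without WT replicate 2, the sample with the least Bmp4, the log2 fold change was 2.03 (adjusted p = 0.119 from limma).

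Bmp2, a close relative of Bmp4 that binds the same receptors, was steadier. It had 200.6, 240.0 and 165.3 normalized counts in WT and 212.0 and 222.3 in Elmo2EID/EID samples. Both Elmo2EID/EID values fell within the WT range. The log2 fold change of Bmp2 was 0.12 (95% interval -0.30 to 0.54, adjusted p = 0.81 from limma). In WT cells Bmp2 was thus the more abundant of the pair, with 56.8 ± 10.5 normalized counts per kb of exon (SD, n = 3) against 13.6 ± 8.64 for Bmp4, whereas the Elmo2EID/EID samples differed, with Bmp2 the higher in replicate 1 (59.6 against 49.7 per kb) and Bmp4 in replicate 2 (99.7 against 62.5).

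The Bmp4 promoter is shown because this gene had the largest difference of the 10. The 250 bases before the RefSeq start lie on the minus strand at chr14:46390670-46390919 of GRCm38.p6 and overlap no annotated exon. Capitals mark CANNTG, the E-box that muscle factors and E proteins bind and that reads alike on both strands. It occurs 3 times here, starting 188, 177 and 123 bases before the gene, and at least once in 66.2% of 32851 mouse promoters of this length.
Bmp4: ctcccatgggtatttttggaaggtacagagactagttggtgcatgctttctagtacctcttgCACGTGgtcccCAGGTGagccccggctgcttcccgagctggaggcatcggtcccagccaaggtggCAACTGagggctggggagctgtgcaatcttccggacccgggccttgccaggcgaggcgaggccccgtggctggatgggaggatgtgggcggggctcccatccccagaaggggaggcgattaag

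The receptors were among the most evenly expressed genes of the set. Bmpr1a, the type I receptor of BMP2 and BMP4, had 8447, 8363 and 8992 normalized counts in WT and 9761 and 8617 in Elmo2EID/EID samples, and Elmo2EID/EID replicate 2 lay inside the WT range. Bmpr2, the type II receptor, had 8414, 8541 and 8286 normalized counts in WT and 8197 and 8943 in Elmo2EID/EID samples, which lay on either side of the WT values. The log2 fold change of Bmpr1a was 0.09 (95% interval -0.09 to 0.27, adjusted p = 0.631 from limma) and that of Bmpr2 was 0.03 (95% interval -0.13 to 0.18, adjusted p = 0.893 from limma). A transcript antisense to Bmpr1a, Gm17110, which the strand-specific counting separates from it, had 13.4 to 19.9 normalized counts.

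Smad1 and Smad5 encode the transducers that BMP receptors phosphorylate, and the 2 genes leaned in opposite directions. Smad1 had 2224, 2011 and 2192 normalized counts in WT and 2450.5 and 2622 in Elmo2EID/EID samples, so both Elmo2EID/EID samples were above all WT samples. Its log2 fold change was 0.24 (standard error 0.07, 95% interval 0.07 to 0.42, adjusted p = 0.186 from limma). Smad5 had 3341, 3217 and 2993 normalized counts in WT and 2874 and 2946 in Elmo2EID/EID samples. Here both Elmo2EID/EID samples were below all WT samples, by a small margin, and the log2 fold change was -0.13 (standard error 0.07, 95% interval -0.29 to 0.04, adjusted p = 0.448 from limma). Per kb of exon, the ratio of Smad1 to Smad5 was 0.789, 0.741 and 0.868 in WT against 1.01 and 1.05 in Elmo2EID/EID samples. This ratio was not tested. An exon of Smad5 shares its strand and position with another annotated gene, and reads that fall there may not have been assigned to either.

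Smad6, whose product blocks SMAD1 and SMAD5 signaling and which is itself switched on by BMP, varied more. It had 342.8, 231.1 and 415.2 normalized counts in WT and 403.3 and 480.5 in Elmo2EID/EID samples. WT replicate 2 was the lowest, and WT replicate 3 exceeded Elmo2EID/EID replicate 1. The log2 fold change was 0.46 (standard error 0.24, 95% interval -0.12 to 1.03, adjusted p = 0.434 from limma), an interval that includes 0. Without WT replicate 2 the log2 fold change of Smad6 was 0.22. Its promoter, at chr9:64022060-64022309 on the minus strand (GRCm38.p6, RefSeq start, no annotated exon), is shown because Smad6 is the feedback target among the 3 Smad genes. It holds neither CANNTG nor the GC-rich element GGCGCC, a palindrome known from Smad-bound enhancers of BMP targets, which 9.59% of the 32851 promoters hold.
Smad6: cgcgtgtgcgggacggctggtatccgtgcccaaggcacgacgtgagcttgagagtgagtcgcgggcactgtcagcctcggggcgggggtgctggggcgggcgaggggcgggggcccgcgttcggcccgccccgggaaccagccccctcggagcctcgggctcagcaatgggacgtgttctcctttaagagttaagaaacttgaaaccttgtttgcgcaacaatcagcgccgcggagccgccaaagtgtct

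Among the other members with a RefSeq promoter, GGCGCC occurred in the window of Id2 (starting 231 bases before the RefSeq start), of Bmpr2 (105) and of Bmpr1a (198). It also occurred in 1 of the 3 windows of Smad5 (19). Unlike those of Bmp4 and Smad6, these windows overlap annotated exons (1 for Id2, 1 for Bmpr2, 2 for Bmpr1a and 2 for this Smad5 window). Those of Id2, Bmpr2 and Bmpr1a lie inside the annotated gene. The Id2 window also held CANNTG (196). Of the 3 Smad5 windows, 2 overlap each other and share the same single CANNTG and the same single TATAA. The window of Id3, which also lies inside the annotated gene and overlaps 1 exon, held TATAA (29). This is held on either strand by 22.8% of all promoters of this length. These are matches of letters and not measured binding sites, and Bmp2 and Id1 were not matched to a promoter entry.

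The Id genes, the best known direct targets of BMP signaling in myoblasts, did not behave as a unit. Id1 had 2174, 1653 and 2543 normalized counts in WT and 1699 and 1764 in Elmo2EID/EID samples, which lay near the lowest WT value. Its log2 fold change was -0.27 (95% interval -0.67 to 0.13, adjusted p = 0.509 from limma). That of Id1 became -0.44 without WT replicate 2 and -0.13 without WT replicate 3. Id3 had 2035, 1602 and 2561 normalized counts in WT and 1882 and 2125 in Elmo2EID/EID samples, all within the WT range, with a log2 fold change of -0.02 (95% interval -0.46 to 0.42, adjusted p = 0.972 from limma). In WT cells both Id1 and Id3 were lowest in replicate 2 and highest in replicate 3. Id2 ran otherwise, with 843.8, 968.0 and 687.4 normalized counts in WT and 562.5 and 641.0 in Elmo2EID/EID samples. Id2 was thus highest where Id1 and Id3 were lowest, and both Elmo2EID/EID samples were below all WT samples. The log2 fold change of Id2 was -0.46 (standard error 0.15, 95% interval -0.82 to -0.10, adjusted p = 0.218 from limma, 0.0997 from DESeq2).

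Per kb of exon, the ratio of Id1 to Id3 was 1.65, 1.59 and 1.53 in WT against 1.39 and 1.28 in Elmo2EID/EID samples, a range of 1.29-fold over the 5 samples. The ratio of Id1 to Id2 ranged 2.17-fold, from 3.59 in WT replicate 2 to 7.78 in WT replicate 3, and the Elmo2EID/EID samples (6.35 and 5.78) lay between. The 3 Id genes together summed to 3356, 2717 and 3904 normalized counts per kb in WT and to 2746 and 2970 in Elmo2EID/EID samples, so that the genotypes overlapped. A processed pseudogene of Id2, Gm6175, which is 91.8% identical over 380 bases, had 0 reads in every sample. Id1 lies on chromosome 2, 12.6 Mb from the targeted Elmo2 gene, and Bmp2 lies 31.7 Mb from it, while the other members are on other chromosomes.

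**Figure D2:**
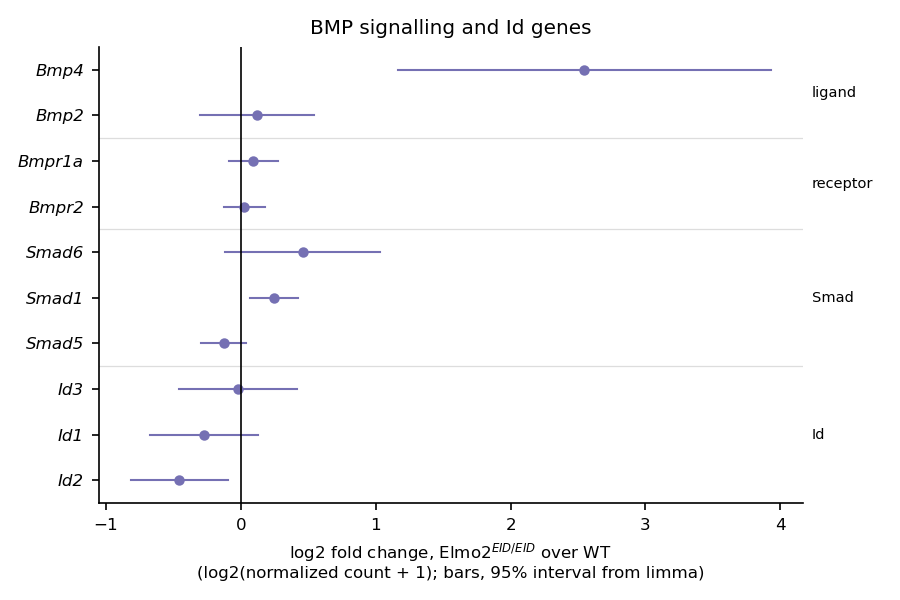
Log2 fold change (x axis, log2(normalized count + 1) scale, Elmo2EID/EID over WT) of each member by role, where points are limma estimates and bars 95% intervals. The interval of Bmp4 (1.16 to 3.93) lies well above 0, those of Smad1 (0.07 to 0.42) and Id2 (-0.82 to -0.10) lie near it, and the other intervals include 0.

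The patterns of the Id genes over the 5 samples were also compared with those of other protein-coding genes, as the root mean square difference of mean-centered log2 values among 10793 genes averaging 100 normalized counts or more. The profile of Id2 was matched most closely by Bub1 (difference 0.04), Cit (0.06) and Cdca8 (0.06). For Id1 the closest were Adcy2 (0.04), Kctd15 (0.06) and Nod2 (0.07), and for Id3 they were Arsa (0.03), Ptgs1 (0.04) and Serpinf1 (0.04). Id3 ranked 72 among the genes closest to Id1, and Id1 ranked 115 among those closest to Id3, while Id1 ranked 8567 for Id2. With 5 samples many genes share a profile, and these are descriptions without a test.

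Compared per kb of exon over all 5 samples, Id1 was the most abundant member (mean 1695 normalized counts per kb, range 1425 to 2193), followed by Bmpr1a (1391), Id3 (1139), Bmpr2 (471.4), Smad5 (414.3), Smad1 (367.3), Id2 (303.8), Smad6 (116.9), Bmp2 (58.5) and Bmp4 (38.0). Id3 and Bmpr2, Bmpr2 and Smad5, Id2 and Smad6, and Smad6 and Bmp2 had ranges that did not overlap. The ranges of the other neighbors in this order overlapped, that is of Id1 and Bmpr1a, Bmpr1a and Id3, Smad5 and Smad1, Smad1 and Id2, and Bmp2 and Bmp4. The 2 ligands were therefore the least abundant members, and Id2 was well below Id1 and Id3 on this scale.

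The rest of the pathway was read from a list of 57 further ligands, receptors, co-receptors, antagonists, Smads, Smad regulators, targets and Id partners. Of these, 49 entered the test and 7 were at or under 3 reads in every sample. Limma and edgeR each called 0 of 49 (2.23% and 2.25% of all genes). Of the 49, 10 had an unadjusted limma p under 0.05 (3 higher and 7 lower, against 15.2% of all genes). The genotypes did not overlap for 18 (7 higher and 11 lower, against 32.6% of all genes). DESeq2 called 4, of which 1 was higher (Bmp6) and 3 were lower (Acvr1, Rgma and Twsg1), where it called 2.28% of all genes higher and 3.06% lower. The median log2 fold change of the 49 was 0.02.

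Bmp6, a ligand that signals through ACVR1 and is made by endothelial cells among others, had 22.1, 5.61 and 42.3 normalized counts in WT and 91.2 and 130.0 in Elmo2EID/EID samples. As with Bmp4, WT replicate 2 was the lowest and both Elmo2EID/EID samples were above all WT samples, with a log2 fold change of 2.55 (adjusted p = 0.164 from limma, 0.0125 from DESeq2). The log2 fold change of Bmp6 was 1.80 without WT replicate 2 and 3.15 without WT replicate 3. Acvr1, a type I receptor, had 1677, 1588 and 1655 normalized counts in WT and 1373 and 1299 in Elmo2EID/EID samples, well apart, with a log2 fold change of -0.30 (adjusted p = 0.0901 from limma, 0.0215 from DESeq2). Twsg1, which binds BMPs outside the cell, had 1832, 2061 and 1988 normalized counts in WT and 1583 and 1381 in Elmo2EID/EID samples. Its log2 fold change was -0.40 (adjusted p = 0.0811 from limma, 0.00782 from DESeq2). Rgma, a co-receptor, had 860.6, 706.7 and 681.2 normalized counts in WT and 586.7 and 458.1 in Elmo2EID/EID samples, with a log2 fold change of -0.52 (adjusted p = 0.158 from limma, 0.0481 from DESeq2). Each of these 3 genes was below all WT samples in both Elmo2EID/EID samples. Zfp423, a zinc finger partner of SMAD proteins named after its values were seen, had the lowest log2 fold change of the 49 (-1.15, adjusted p = 0.0724 from limma, 0.0684 from DESeq2), with 48.6, 49.4 and 44.8 normalized counts in WT and 18.8 and 23.3 in Elmo2EID/EID samples.

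The most abundant gene of each role per kb was called by none of the 3 tools. The co-receptor Hjv, known from skeletal muscle, had 8850 normalized counts per kb over the 5 samples and a log2 fold change of 0.01 (95% interval -0.17 to 0.20), and the Smad regulator Tob1 had 2901 per kb and 0.02 (95% interval -0.31 to 0.35). The signs of both turned under other scalings. The log2 fold change was 0.14 for the ligand Gdf6, 0.09 for the type II receptor Acvr2a, -0.11 for the antagonist Nbl1, 0.07 for Smad4, the shared partner of SMAD1 and SMAD5, and 0.38 for the target Atoh8, with adjusted p-values from 0.434 to 0.736 from limma. The E protein genes Tcf3, Tcf4 and Tcf12, whose products the ID proteins capture, were each below the WT range in both Elmo2EID/EID samples (15.9% of all genes). Tcf3 had 1877, 1856 and 1678 normalized counts in WT and 1476 and 1653 in Elmo2EID/EID samples, and its log2 fold change was -0.21 (95% interval -0.41 to -0.0024, adjusted p = 0.323 from limma). The adjusted p was 0.287 for Tcf4 and 0.416 for Tcf12 (limma).

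**Figure D3:**
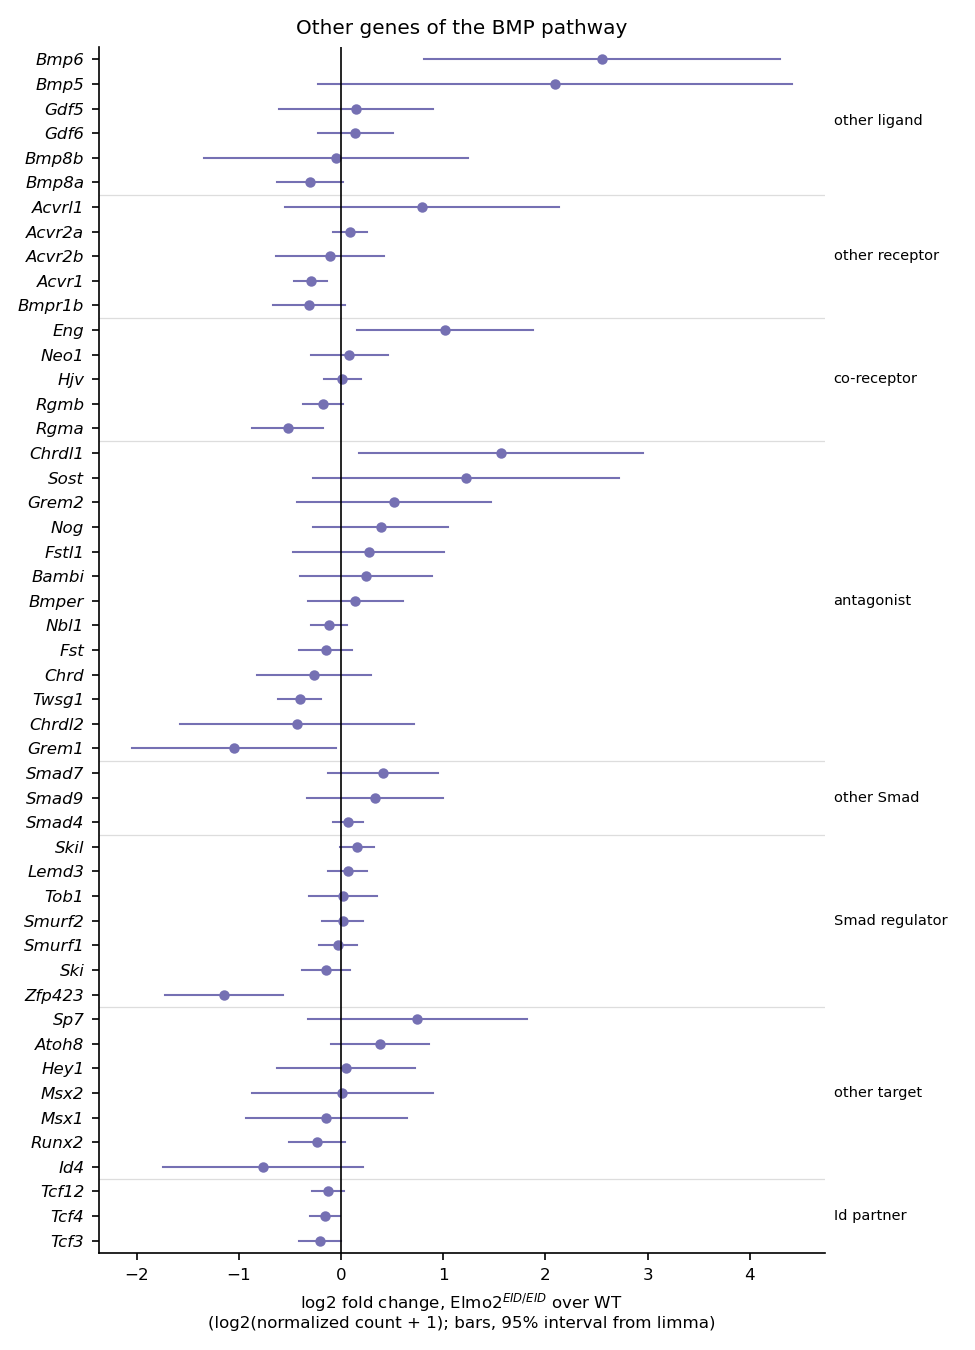
Log2 fold change (x axis, log2(normalized count + 1) scale, Elmo2EID/EID over WT) of the 49 other pathway genes tested, grouped by role, where points are limma estimates and bars 95% intervals. Bmp6 (2.55) has the highest estimate, that of Acvr1 (-0.30) is small with a narrow interval below 0, and those of Hjv (0.01) and Tob1 (0.02) sit at 0.

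The cultures were checked for the cells they could hold. Totals were 35021856 to 49381544 reads, at which 3 reads are 2.65 to 3.73 normalized counts. The muscle markers were high in every sample, with Myog at 47286 to 53544 and Myh3 at 395823 to 602709 normalized counts. Limma, edgeR and DESeq2 called 0 of 9 of them (2.23%, 2.25% and 5.34% of all genes). At an unadjusted limma p under 0.05 there were 0 (15.2% of all genes). The genotypes did not overlap for 4 of the 9 (32.6% of all genes), 2 higher and 2 lower in Elmo2EID/EID samples. Of the 3 satellite cell markers tested, Pax7 fell in Elmo2EID/EID samples, to 414.1 and 297.6 from 922.4, 942.2 and 836.6 normalized counts in WT (log2 fold change -1.35, adjusted p = 0.00764 from limma), while Heyl (log2 fold change -1.48, adjusted p = 0.0739 from limma, 0.0332 from DESeq2) was below and Myf5 (0.74, adjusted p = 0.237 from limma) above the WT range in both Elmo2EID/EID samples. Of the 6 pericyte markers tested, Rgs5 fell (log2 fold change -2.97, adjusted p = 0.00759 from limma), while Cspg4 (0.39, adjusted p = 0.264 from limma) and Myh11 (1.42, adjusted p = 0.25 from limma) were above the WT range. The adjusted p of Pax7 was 0.076 without the limma trend, 0.0506 without WT replicate 1 and 0.0711 without Elmo2EID/EID replicate 2, and that of Rgs5 was 0.0516 without the trend and 0.102 and 0.12 without Elmo2EID/EID replicate 1 or 2. Of the other defining markers, Kcnj8 (pericytes), Ptprc (macrophages), Tnmd (tendon cells), Adipoq and Plin1 (fat cells) and Calcr (satellite cells) were at or under 3 reads in all 5 samples, Adgre1 (macrophages) had at most 5.37 normalized counts, while Scx (tendon cells) had 3354 to 5024. Pdgfra and Ly6a (fibro-adipogenic cells) had 120.0 to 758.1 and 40.4 to 225.0 normalized counts and overlapped between the genotypes, while of the other fibro-adipogenic markers tested Col3a1 (log2 fold change -0.90, adjusted p = 0.102 from limma, 0.00165 from DESeq2) was below and Dcn (1.80, adjusted p = 0.199 from limma) above the WT range. Heyl, Myf5, Cspg4, Myh11, Col3a1 and Dcn are named after their values were seen. Xist was expressed in all 5 samples and the 4 Y-linked genes had at most 1.24 normalized counts.

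Endothelial markers moved with Bmp4. The 10 genes of that list summed to 1202, 389.2 and 1297 normalized counts in WT and to 3069 and 4470 in Elmo2EID/EID samples, the same order of genotypes and the same lowest sample as for Bmp4. The defining markers were not at 0, with Pecam1 at 157.3, 24.7 and 160.4 in WT against 410.5 and 649.9 in Elmo2EID/EID samples, and Cdh5 at 281.0, 59.4 and 297.1 against 727.1 and 1001. Of the 10 genes, 9 lay above the WT range in both Elmo2EID/EID samples and 1 (Cldn5) lay below it (16.7% and 15.9% of all genes). Cldn5 was low, with 7, 4 and 4 reads in WT and 5 and 2 in Elmo2EID/EID samples. All 10 were lowest among WT samples in replicate 2, as were 33.5% of all genes with 3 distinct WT values. Limma called 0 of 10 (2.23% of all genes), with 7 at an unadjusted p under 0.05 (15.2% of all genes), edgeR called 1 (2.25%) and DESeq2 called 3 (5.34%), each of them higher. Without WT replicate 2, limma called Pecam1 (adjusted p = 0.0374) and Cdh5 (adjusted p = 0.02). The 7 Schwann cell genes partly shared this pattern, with a positive log2 fold change for all 7 (median 1.53). Of these, 6 were lowest among WT samples in replicate 2, but only 1 lay above the WT range in both Elmo2EID/EID samples. Fabp4, a fat cell gene named after its values were seen, was also lowest in WT replicate 2 (38.1 normalized counts). Its WT replicate 3 value (304.6) exceeded that of Elmo2EID/EID replicate 1 (292.4). What these genes share with Bmp4 was not tested.

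Bmp4 ranged 18.2-fold over the 5 samples and the endothelial sum 11.5-fold. Set against that sum, Bmp4 came to 2.35, 3.17 and 3.93 per 100 endothelial counts in WT and to 3.64 and 5.01 in Elmo2EID/EID samples, a 2.13-fold range in which the genotypes overlapped. Bmp6 came to 1.84, 1.44 and 3.26 per 100 in WT against 2.97 and 2.91 in Elmo2EID/EID samples, also overlapping. Eng, an endothelial co-receptor of the pathway that was named after its values were seen, had 918.9, 453.2 and 1048 normalized counts in WT and 1249 and 1899 in Elmo2EID/EID samples. Per 100 endothelial counts Eng came to 76.4, 116.4 and 80.8 in WT and to 40.7 and 42.5 in Elmo2EID/EID samples, so that on this scale the genotypes stood apart with Eng lower in Elmo2EID/EID. The members Smad6, Id1 and Id3 ranged 2.08-fold, 1.54-fold and 1.60-fold, and each was lowest in WT replicate 2, the sample with the least endothelial RNA. The bead isolation is meant to remove endothelial cells, and the part of any that remained in the Bmp4 and Bmp6 values was not tested, and in bulk RNA more cells of a type cannot be told apart from more RNA per cell.

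**Figure D4:**
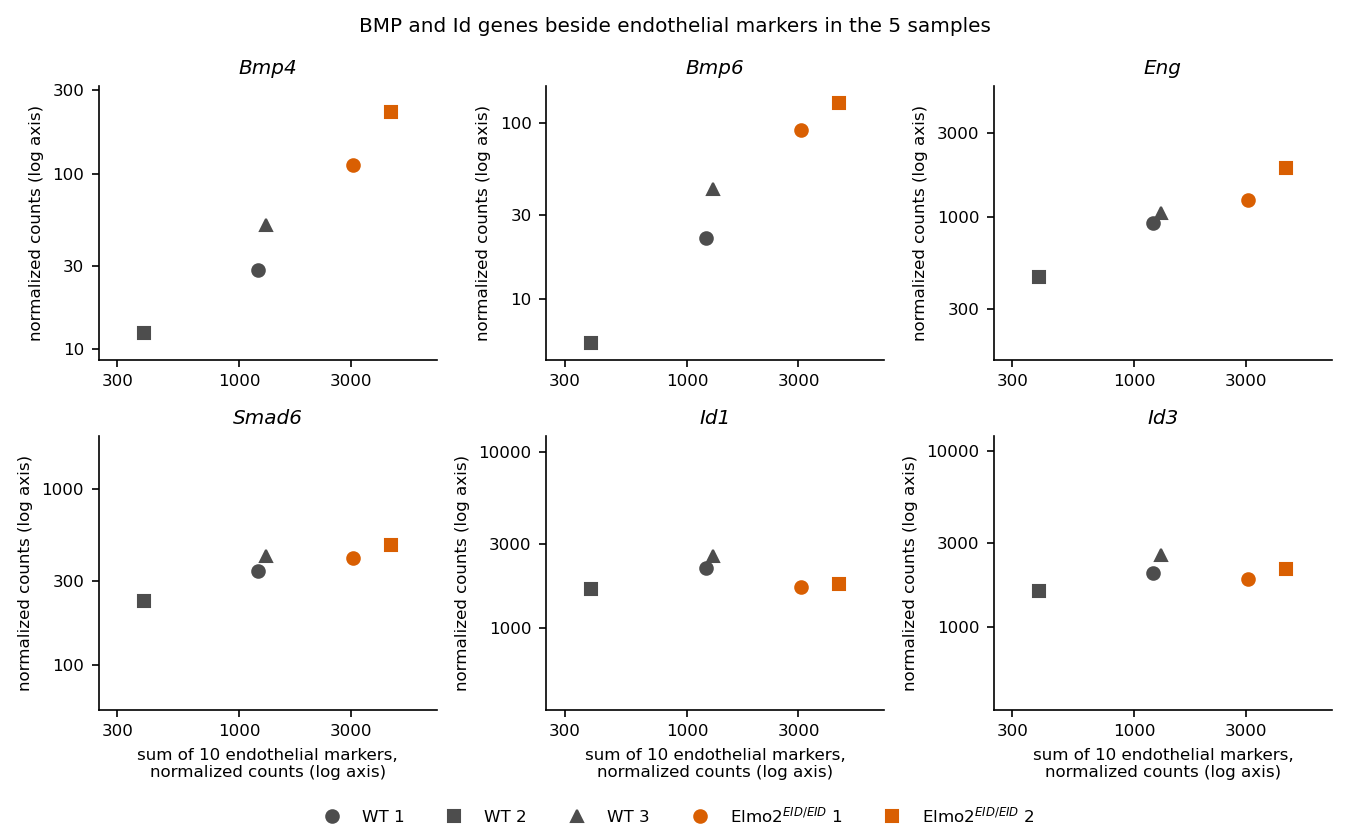
Normalized counts of 6 pathway genes (y axes, log scale, the same fold range in each panel) against the sum of 10 endothelial markers (x axis, normalized counts, log scale) in the 5 samples, where color gives the genotype and the symbol the replicate. Bmp4 and Bmp6 are higher in samples with a higher sum (389.2 to 4470), whereas Id1 and Id3 stay within a 1.54-fold and 1.60-fold range.

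Markers of cycling cells moved with Id2. The 8 genes of that list summed to 3685, 3620 and 2594 normalized counts in WT and to 2482 and 2676 in Elmo2EID/EID samples. Limma, edgeR and DESeq2 called 0 of 8 (2.23%, 2.25% and 5.34% of all genes). At an unadjusted limma p under 0.05 there were 3 (15.2% of all genes), all of them lower (8.31% of all genes). All 8 had a negative log2 fold change (median -0.35, where 52.1% of all genes had a positive one). Of the 8, 4 lay below the WT range in both Elmo2EID/EID samples (15.9% of all genes). All 8 were lowest among WT samples in replicate 3, as Id2 was and as were 36.8% of all genes with 3 distinct WT values. Of the defining markers, Mki67 had 1043, 968.0 and 716.0 normalized counts in WT and 691.3 and 857.9 in Elmo2EID/EID samples, and Top2a had 1181, 1171 and 804.3 against 715.5 and 722.6. Id2 ranged 1.72-fold over the 5 samples and the cycling sum 1.48-fold, and Id2 per 100 cycling counts was 22.9, 26.7 and 26.5 in WT against 22.7 and 24.0 in Elmo2EID/EID samples, a 1.18-fold range in which the genotypes overlapped. Bub1, the gene closest to Id2 in profile, is itself on this list, but both comparisons rest on the same 5 samples and are not independent. The part of cycling cells in the Id2 values was not tested.

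**Figure D5:**
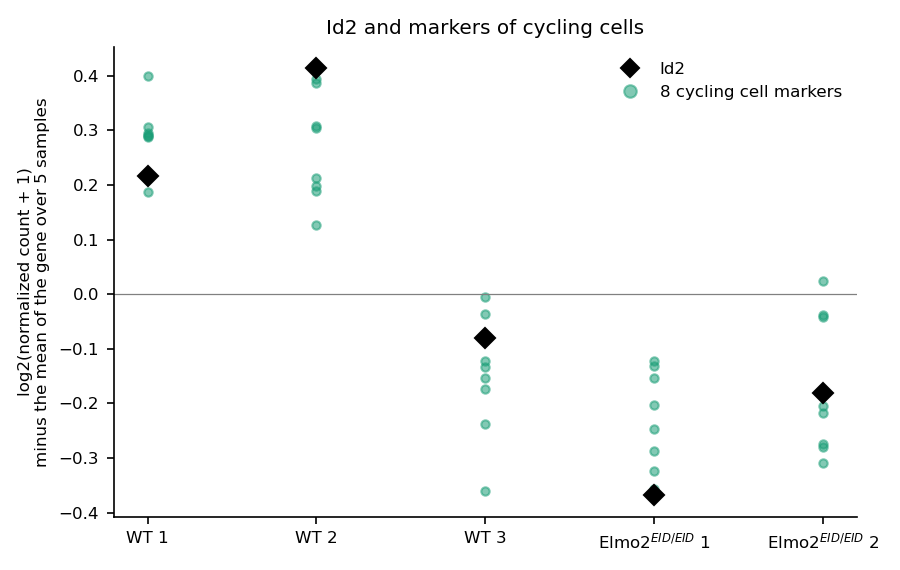
Log2(normalized count + 1) minus the mean of each gene over the 5 samples (y axis) for Id2 (black diamonds) and the 8 markers of cycling cells (green points) in each sample (x axis). Id2 and the markers are highest in WT replicates 1 and 2 and lower in WT replicate 3 and both Elmo2EID/EID samples, where the cycling sums are 3685 and 3620 against 2594, 2482 and 2676.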

How the data were processed

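Poly-A RNA of primary myoblasts (3 WT and 2 Elmo2EID/EID samples, differentiated for 72 h) was sequenced in read pairs. Untrimmed reads were mapped to GRCm38 with STAR 2.5.1b and unique alignments were counted by gene with featureCounts 1.4.6 (reverse stranded). The signal that the authors deposited is this count over the size factor of each library, from DESeq2 1.34.0. All 5 sample columns were used. Dividing by the smallest positive value gave whole reads within 0.01 for 100% of values.

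Groups came from the sample labels. Members and lists were chosen with earlier results of these data known. The main test was limma 3.58.1 (lmFit, eBayes with trend) on log2(normalized count + 1), two-sided, with Benjamini-Hochberg adjustment over 18156 genes. The edgeR 4.0.16 quasi-likelihood test and DESeq2 1.42.0 were run on the recovered reads of the same genes (R 4.3.3), and all tests were checked on simulated data. Other pseudocounts, filters and scalings, a replicate block and the omission of each sample were alternatives. Named genes were the members, other pathway genes called by limma or DESeq2, the most abundant per kb of each role, defining markers, and the 3 genes closest to each Id gene. Intervals and floors of 3 reads do not cover amplification error. Copies were sought with blastn 2.17.0, taking matches of at least 90% over 200 bases. Promoters came from RefSeq tables on GRCm38.p6, and 8 of 10 members matched.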

Additional observations from a re-analysis of the deposited data

How the results depend on the processing

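The count of members called was 0 in 15 of 16 alternatives and 1 (Bmp4) with DESeq2, which also called 4 other pathway genes. The 404 genes called in all became 155 without a filter, 144 without the trend, 969 with DESeq2, and 34 (without Elmo2EID/EID replicate 2) to 335 (without WT replicate 3) when a sample was left out. Of 160 member fold changes under alternatives, 153 kept their direction and side of the threshold. With the replicate block, 224 genes and 0 members were called, and the log2 fold change became -0.015 for Bmp2 and 0.15 for Id3, as well as 0.10 for Arsa and 0.13 for Serpinf1. Marker genes that limma called with the block and not without it were Heyl (0.0377), Col3a1 (0.0404), Myf5 (0.049), the endothelial Flt1 (0.029) and the Schwann cell genes Ngfr (0.0167) and Cdh19 (0.0366). The numbers did not pair the samples (correlation of deviations -0.24 over 13769 genes, 2 pairs). Leaving out samples gave log2 fold changes of -0.015 to 0.25 for Bmp2, -0.037 to 0.088 for Bmpr2, -0.19 to 0.15 for Id3, -0.055 to 0.082 for Hjv and -0.12 to 0.16 for Tob1. It gave -0.68 to 0.65 for Pdgfra, -0.50 to 0.92 for Ly6a, -1.05 to 1.62 for Adgre1, -0.45 to 0.0042 for Myh3, -0.23 to 0.10 for Arsa, -0.14 to 0.21 for Ptgs1 and -0.17 to 0.13 for Serpinf1. Hjv became -0.00050 with equal totals and -0.0038 with quantile normalization, Tob1 -0.0012 with quantile normalization, and Pdgfra -0.19 with edgeR and -0.17 with DESeq2. The cause of these changes was not tested.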
